A study of Sus scrofa with 48 samples.

Results

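Claudins are the membrane proteins that build the strands of tight junctions, the seals between neighbouring cells. Claudins of adjoining cells meet head to head across the gap between the membranes. Some members close that gap, and others form pores that let cations, anions or water pass. They are best known from epithelia such as gut, kidney and lung, while CLDN5 is the main claudin of blood vessel endothelium. In adipose tissue, tight junctions are known from the vessels and from the surface lining of the depot rather than from the fat cells.

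The claudins were taken from a one-colour Agilent array as every array feature whose gene name begins with CLDN. The array carried 41 such features for 22 genes, of 60305 features in all. A feature was kept where the scanner software called it well above background on 24 or more of the 48 arrays. This held for 29 claudin features of 16 genes, against 43355 features of the whole array. CLDN4 was selected on its rise under the HF diet in these same data, so its difference between diets is given as a description and was not tested.

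The arrays measured RNA of perirenal adipose tissue, the visceral fat depot around the kidney, from 48 Large White barrows aged 132 days. Diet and line were crossed with 12 pigs per group, namely HF low RFI, HF high RFI, LF low RFI and LF high RFI. HF was rich in fat and fiber, and LF was poor in both and, per the study's methods, rich in starch, so what fat, fiber and starch each contributed cannot be told apart. Residual feed intake (RFI) is the feed eaten beyond what maintenance and growth predict, and the lines, labelled RFIneg (low) and RFIpl (high), had been selected in opposite directions on it. All pigs had free access to feed, and each gave 1 array. The study reported that HF pigs ate less, ended lighter and had less perirenal fat relative to body weight. Feed intake, body weight and depot size therefore cannot be told apart from diet composition here.

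Every value below is log2 of the median spot intensity minus the array median over all non-control features, so 0 is the typical feature of that array. Levels of different features cannot be set against each other, because each probe binds with its own strength. Between 38875 and 47813 features per array were well above background, and the array median intensity ranged from 115 to 178. The median correlation of an array with the others lay between 0.976 and 0.989, and each of the 6 slides held 2 arrays of each group. ADIPOQ and PLIN1, which mark fat cells, were well above background on all 48 arrays. EPCAM, the general epithelial marker, reached that on 14 arrays at most over its 18 features, and CYP17A1 of the adrenal cortex on 11 at most over 3 features. MSLN, UPK3B and UMOD were not found under those names.

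The sequences that carry the CLDN4 and related values are shown first, because they tell which measurements are independent of each other. The scanner files give each probe as 60 bases without genome coordinates or a build, 5′ to 3′. CLDN4 had a pair of kept features, O13146 and A_72_P441105, which share no sequence. The whole of A_72_P441105 reads as follows.
A_72_P441105 (CLDN4): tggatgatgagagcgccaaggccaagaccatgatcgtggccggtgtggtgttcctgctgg

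O13146 has a near copy on the array that carries no claudin name. The array carries it as A_72_P157716 and again as a further feature of the same sequence, and the file describes the former's record as a pig mRNA clone expressed in liver. The copies differ from O13146 by the substitution A48G, counted from the 5′ end of O13146. The last 30 bases are shown, with the differing base in capitals.
O13146 (CLDN4): tttctacaataaatgggAcctgtgcacagg
A_72_P157716 (pig liver clone): tttctacaataaatgggGcctgtgcacagg

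The next sequences belong to CLDN5, CLDN7 and CLDN15, the claudins called for diet below. The probes shown cover a matching stretch, AAGTANGAGNT, which stands in capitals. The other CLDN5 feature, A_72_P358883, and the other CLDN15 feature, A_72_P356028, do not hold it. N is any base. The stretch was derived from these very probes as their longest match with at most 2 differing positions, so its presence in them is no finding. On either strand the stretch occurred in 4 of the 41 claudin features and in 28 of all 60305 features (0.0464%). The 4 are the probes shown and a CLDN7 feature of the same sequence, so that count is no finding either.
A_72_P444320 (CLDN5): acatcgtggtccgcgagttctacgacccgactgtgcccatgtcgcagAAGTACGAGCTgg
A_72_P300854 (CLDN7): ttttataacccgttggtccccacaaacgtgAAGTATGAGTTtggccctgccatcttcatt
O14529 (CLDN15): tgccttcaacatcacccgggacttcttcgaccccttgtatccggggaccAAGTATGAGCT

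The second CLDN7 feature, O11868, has the same 60 bases as A_72_P300854, so the pair measures 1 probe printed at separate spots. The same holds for the CLDN11 features A_72_P196052 and A_72_P558764 and for the CLDN12 features A_72_P198317 and O1511. The 29 kept features therefore hold 26 distinct sequences. All 22 claudin symbols were found in the RefSeq gene table of the Sscrofa11.1 assembly, and for 24 of the 41 features the record named in the file was a pig RefSeq transcript of that table. The records of O13146 and O14529 were not among them.

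CLDN4, a claudin of tight epithelia such as the collecting duct of the kidney, varied more between pigs than between diets. On O13146 the HF low RFI pigs ran from 0.54 through a median of 2.67 to 6.0. The HF high RFI pigs ran from 0.02 through 3.08 to 4.88. The LF low RFI pigs ran from -0.46 through 0.99 to 1.86, and the LF high RFI pigs from -0.41 through 1.47 to 4.97. The LF low RFI group was the tightest, while in the other groups low and high pigs lay several log2 units apart, and all 4 groups overlapped.

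Averaged over lines, O13146 had a mean of 2.62 ± 1.67 under HF and of 1.23 ± 1.22 under LF (each SD, n = 24). HF minus LF was 1.39 ± 0.41 (SE) on the log2 scale, or 2.62-fold. It was 1.72 in the low RFI line and 1.06 in the high RFI line. Of the 24 HF pigs, 17 lay above the LF mean, and 1 lay above the highest LF pig. Most of the HF range lay inside the LF range.

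**Figure D1:**
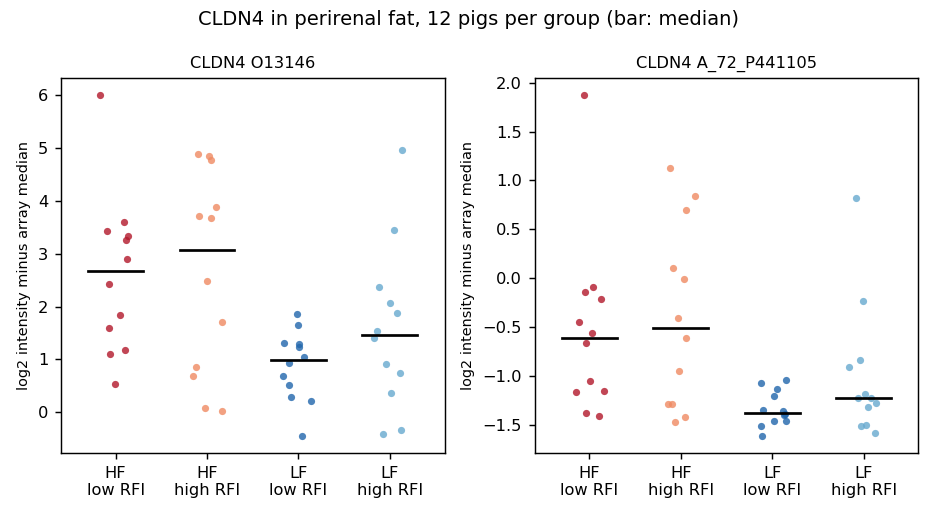
CLDN4 in the 48 pigs on features O13146 (left) and A_72_P441105 (right). Each point is 1 pig, the y axis is log2 intensity minus the array median, and the bar is the group median. The medians of the HF groups (2.67 and 3.08 on O13146) lie above those of the LF groups (0.99 and 1.47), and the points of all groups overlap.

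The dimmer feature A_72_P441105 was well above background on 22 of the 24 HF arrays and 16 of the 24 LF arrays. Its lowest, median and highest values were -1.46, -0.58 and 1.87 in HF pigs and -1.61, -1.29 and 0.82 in LF pigs. Its difference, HF minus LF, was 0.70 ± 0.20 (SE). With the background-subtracted processed signal it was 1.26, so its size depended on how background was treated. Over the 48 pigs, with the group means subtracted, both features ordered the pigs alike (Pearson r = 0.93). The near copy A_72_P157716 followed O13146 at r = 0.998 and gave 1.40 ± 0.39 (SE) between diets.

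Within the slides, HF pigs averaged higher than LF pigs on all 6 for both CLDN4 features. CLDN4 was selected on this rise over the same arrays, so the slides describe it and give no separate support. For O13146 the within-slide difference ran from 0.13 on slide 5 to 2.32 on slide 4. For A_72_P441105 it ran from 0.14 on slide 5 to 1.26 on slide 2. On the 2 scan days O13146 gave 1.5 and 1.28.

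**Figure D2:**
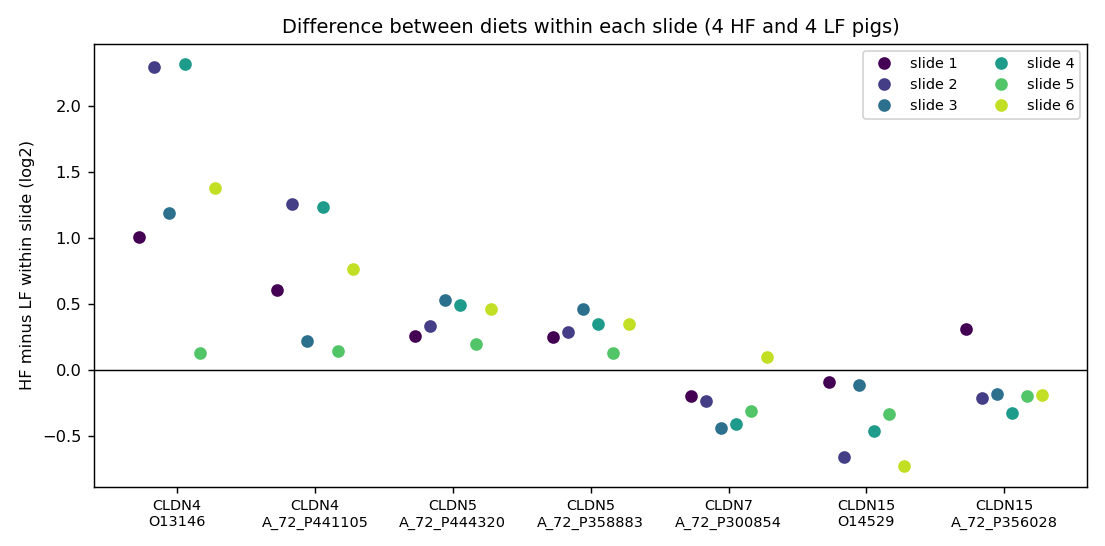
Difference between diets, HF minus LF on the log2 scale, within each of the 6 slides (4 HF and 4 LF pigs a slide) for CLDN4, CLDN5, CLDN7 and CLDN15. Each point is 1 slide. Both CLDN4 features and both CLDN5 features are above 0 on every slide, while CLDN7 and the CLDN15 feature A_72_P356028 are above 0 on 1 slide each. CLDN4 was selected on its rise in these arrays, so its points are a description.

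The selection lines did not separate CLDN4. O13146 averaged 1.74 ± 1.43 (SD, n = 24) in low RFI and 2.11 ± 1.78 (SD, n = 24) in high RFI pigs. The difference, low minus high RFI, was -0.36 with a 95% interval from -1.19 to 0.46 (limma, adjusted p = 0.808). A_72_P441105 gave -0.24, with an interval from -0.65 to 0.17 (limma, adjusted p = 0.721). The effect of diet was not shown to differ between lines for either feature, with unadjusted p for the interaction of 0.420 and 0.648 (limma), and for O13146 the interval of that difference was wide, from -0.98 to 2.31.

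A feature was called changed at an unadjusted p under 0.01, a fold over 1.1 and a Benjamini-Hochberg p under 0.08 over all 43355 features, the thresholds of the study's methods. Apart from CLDN4, 5 of 27 claudin features (18.5%) were called for diet, where 23% of all features were. Of these, 2 were higher in HF pigs and 3 lower, against 8.57% and 14.5% of all features. They stood for 3 genes, with CLDN5 higher and CLDN7 and CLDN15 lower. The claudin share did not exceed that of the array as a whole. The median difference over the 27 features was -0.07, beside -0.02 over all features.

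**Figure D3:**
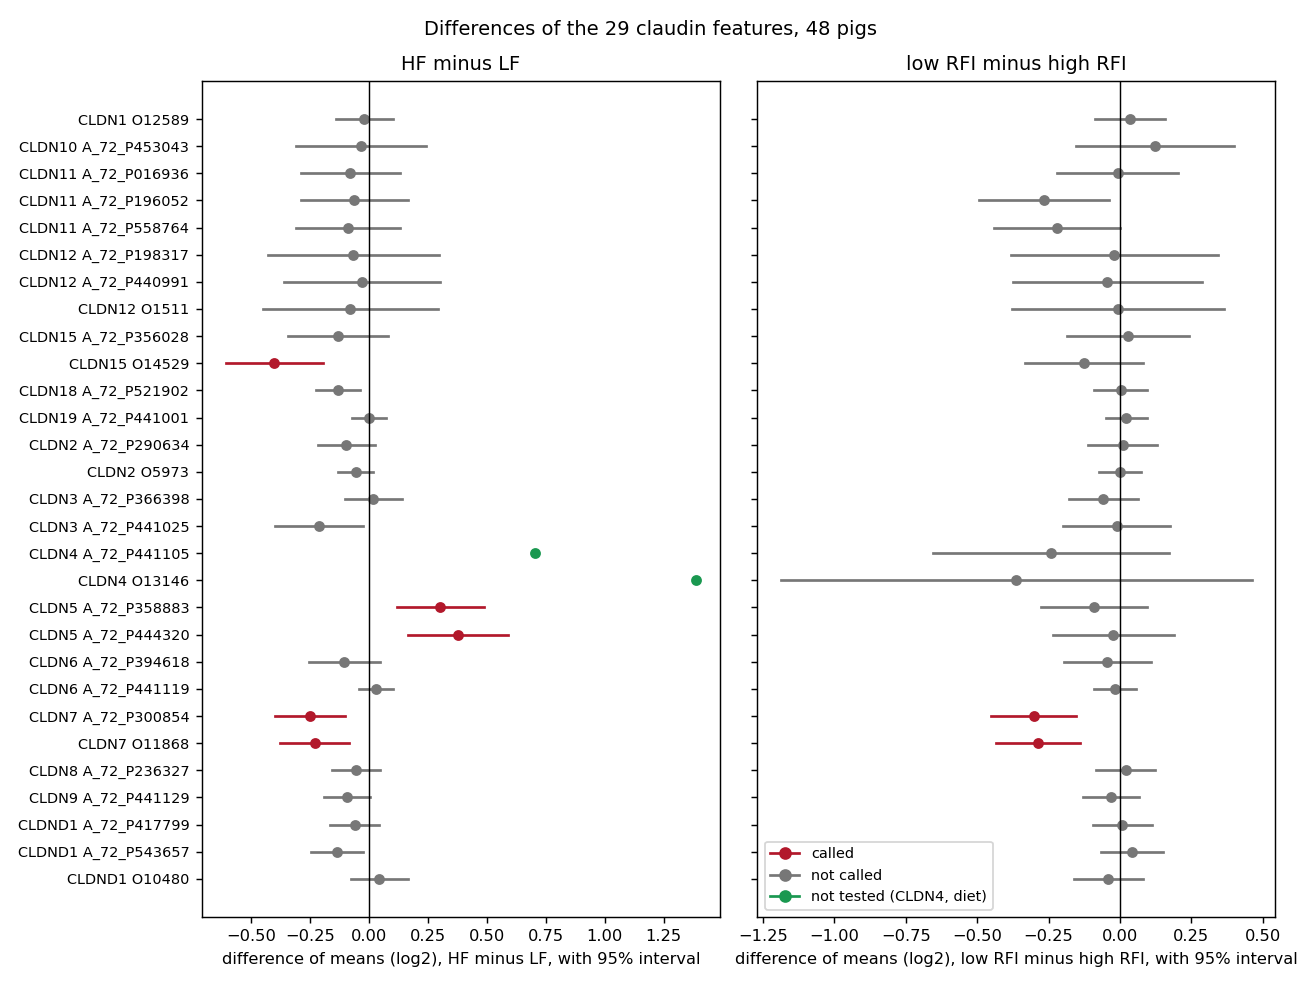
Differences of means on the log2 scale for the 29 claudin features, HF minus LF (left) and low minus high RFI (right), over 48 pigs. Points are the differences and lines their 95% intervals, drawn red where called and grey where not. CLDN4 is green and without an interval for diet, where it was not tested. Called features are CLDN5 (0.30 and 0.38), CLDN7 (-0.25 and -0.23) and CLDN15 O14529 (-0.40) for diet, and CLDN7 (-0.30 and -0.29) for line.

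CLDN5, which seals the endothelium of vessels, rose on the HF diet at both features. On A_72_P444320 the HF pigs ran from 2.48 through a median of 3.38 to 4.07, and the LF pigs from 2.36 through 2.99 to 3.70. On A_72_P358883 the HF pigs ran from 7.43 through 8.13 to 8.96 and the LF pigs from 7.27 through 7.84 to 8.43. The diets overlapped broadly, yet 21 of the 24 HF pigs lay above the LF mean at each feature.

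The rise of CLDN5 was 0.38 ± 0.10 (SE) or 1.30-fold at A_72_P444320 (limma, adjusted p = 0.00567). At A_72_P358883 it was 0.30 ± 0.09 (SE) or 1.23-fold (limma, adjusted p = 0.0113). Both features ordered the pigs alike within groups (r = 0.94). HF exceeded LF on all 6 slides at both, by 0.19 to 0.53 and by 0.13 to 0.47. In the low and high RFI lines the difference at A_72_P444320 was 0.46 and 0.29.

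None of the 9 measured markers of the endothelial list was called for diet in either direction, where 23% of all features were. Their median difference was 0.00311, beside -0.02 over all features. PECAM1, an adhesion protein of endothelial cells, differed by 0.02 ± 0.07 (SE) and CDH5, the cadherin of endothelial junctions, by -0.06 ± 0.10 (SE). The receptors TEK and KDR gave 0.18 ± 0.08 and 0.17 ± 0.11 (SE) without being called. The summed linear level of the list, in multiples of the array median and weighted by its brightest probes, as for the lists below, ran from 274 to 405 in HF pigs and from 237 to 397 in LF pigs. In whole tissue, fewer cells of a type and less RNA per cell cannot be told apart, and this holds for every difference given here.

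CLDN7, an epithelial claudin found also along the sides of cells outside the tight junction, was the 1 claudin gene called for both diet and line. On A_72_P300854 the HF low RFI pigs ran from -0.75 through a median of -0.46 to -0.06, and the HF high RFI pigs from -0.51 through -0.07 to 0.22. The LF low RFI pigs ran from -0.51 through -0.24 to 0.44 and the LF high RFI pigs from -0.29 through 0.11 to 0.80. The groups followed a ladder with overlaps, lowest in HF low RFI and highest in LF high RFI.

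By diet, CLDN7 fell by 0.25 ± 0.07 (SE) on the log2 scale in HF pigs, or 1.19-fold (limma, adjusted p = 0.00984). Its second spot set, O11868, fell by 0.23 ± 0.07 (SE) (limma, adjusted p = 0.0152). Under HF, 18 of 24 pigs were lower than the LF average at the former and 20 of 24 at the latter. Within slides the direction held on 5 of the 6, with 0.10 on slide 6 at A_72_P300854. This call depended on the scaling. When arrays were centred on the E1A_r60 spike-in controls in place of the array median, the differences became -0.10 and -0.08 and neither was called (limma, adjusted p = 0.334 and 0.413).

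By line, 2 of the 29 claudin features (6.9%) were called, both CLDN7, where 3.37% of all features were called, 1.71% higher and 1.67% lower in low RFI pigs. The 2 features are 1 sequence, so among distinct sequences this was 1 of 26. A_72_P300854 averaged -0.30 ± 0.25 (SD, n = 24) in low RFI and 0.0030 ± 0.32 (SD, n = 24) in high RFI pigs. It was lower in low RFI by -0.30, with a 95% interval from -0.45 to -0.15 (limma, adjusted p = 0.0130). O11868, of the same sequence, gave -0.29, with an interval from -0.44 to -0.14 (limma, adjusted p = 0.0171). Of the 24 low RFI pigs, 23 and 22 lay below the high RFI mean. The difference was -0.26 on the HF diet and -0.35 on the LF diet, and on 5 of the 6 slides low RFI was lower, the exception being slide 2 with 0.24.

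CLDN15, the cation pore of the intestinal lining, was called at 1 of its pair of features. On O14529 the HF pigs ran from -1.25 through a median of -0.90 to -0.21 and the LF pigs from -1.09 through -0.61 to 0.87. The ranges overlapped, with 21 HF pigs under the mean of LF. The feature fell by 0.40 ± 0.10 (SE), or 1.32-fold (limma, adjusted p = 0.00279), and was lower in HF pigs on all 6 slides. With spike-in centring the difference was -0.25 and was no longer called (limma, adjusted p = 0.0726).

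The other CLDN15 feature, A_72_P356028, ran from 1.47 through 1.86 to 3.0 in HF pigs and from 1.30 through 2.03 to 2.92 in LF pigs. Its difference of -0.13 had a 95% interval from -0.34 to 0.08 and was not called (limma, adjusted p = 0.360). The features shared only part of their variation between pigs (r = 0.42). Whether O14529 or A_72_P356028 follows the CLDN15 transcript better was not tested.

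**Figure D4:**
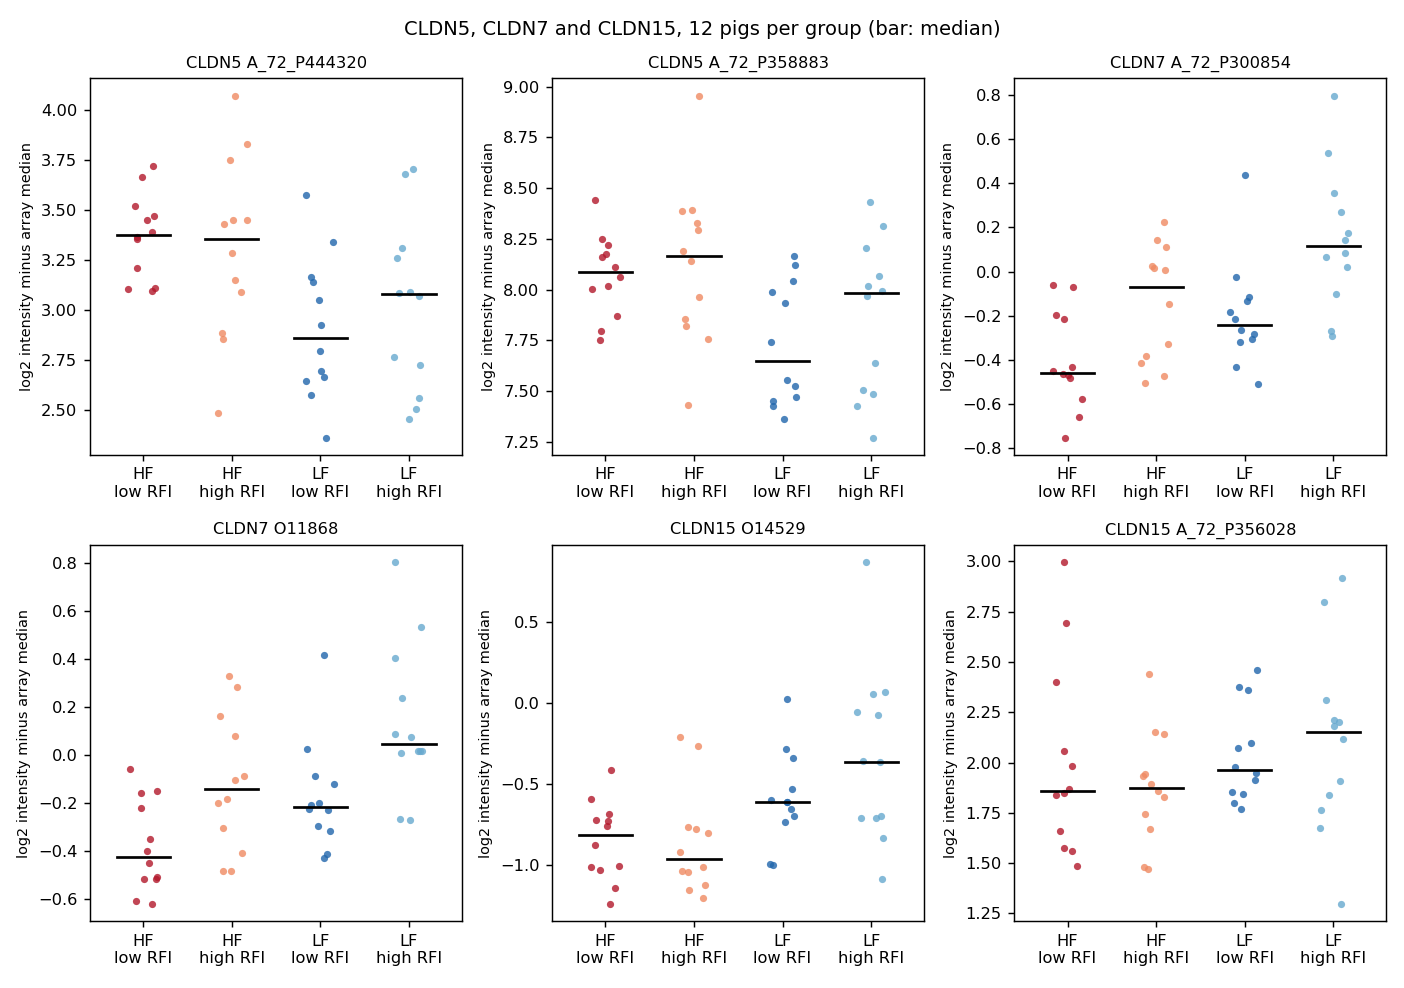
CLDN5, CLDN7 and CLDN15 in the 48 pigs, with both features of each gene. Each point is 1 pig, the y axis is log2 intensity minus the array median, and the bar is the group median. CLDN5 is higher in the HF groups, CLDN7 steps up from HF low RFI (median -0.46 at A_72_P300854) to LF high RFI (0.11), and CLDN15 is lower in HF pigs at O14529.

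The remaining barrier-forming claudins were not called for diet. CLDN1, which seals the skin, differed by -0.02 ± 0.06 (SE). CLDN3, which lies next to CLDN4 in the genome as its neighbouring protein-coding gene, gave 0.02 ± 0.06 (SE) at A_72_P366398 and -0.21 ± 0.09 (SE) at A_72_P441025 (limma, adjusted p = 0.838 and 0.0826). CLDN3 and CLDN4 varied little together over the 48 pigs within groups (r = 0.19), the highest r of CLDN4 with any of the other 15 claudin genes. The lowest was -0.29, with CLDN6.

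CLDN18, known from stomach and lung, came closest to a call without reaching it. At A_72_P521902 the HF pigs ran from -1.03 through -0.94 to -0.58 and the LF pigs from -1.14 through -0.74 to -0.43. The difference was -0.13 ± 0.05 (SE, limma, adjusted p = 0.0280), just under the fold of 1.1. CLDN19, a claudin of kidney and nerve sheath, had equal means of 1.32 in both diets, with a 95% interval of the difference from -0.07 to 0.07. CLDN8 and CLDN9 gave -0.05 and -0.09, and the CLDN6 features gave -0.10 and 0.03.

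The pore-forming members CLDN2 and CLDN10 were likewise not called. CLDN2, a channel for cations and water, gave -0.10 ± 0.06 and -0.06 ± 0.04 (SE) at its kept features, which did not vary together between pigs (r = 0.01). CLDN10 gave -0.03, with a wide 95% interval from -0.31 to 0.24. CLDND1, named for a claudin domain rather than as a member of the classic family, gave -0.13, -0.06 and 0.04 at its features.

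CLDN11, known from myelin and the testis barrier, had its lowest group in HF low RFI. At A_72_P196052 this group ran from -1.01 through a median of -0.53 to -0.10, while the LF low RFI group ran from -1.32 through -0.13 to 0.49. Low minus high RFI was -0.27 ± 0.11 (SE) and was not called (limma, adjusted p = 0.273). It was -0.48 on HF and -0.05 on LF, yet the interaction was not called (limma, unadjusted p = 0.0651). The third kept CLDN11 feature, A_72_P016936, of other sequence, varied independently between pigs (r = -0.01) and gave -0.0083 between lines.

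CLDN12, a claudin without the usual binding motif for scaffold proteins at its tail, fell into separate levels that followed neither diet nor line. At A_72_P198317 the lower 20 pigs ended at 2.48 and the upper 28 pigs began at 2.91. At A_72_P440991 the gap lay between 0.98 and 1.37, and at O1511 between 2.32 and 2.62. The same 28 pigs were in the upper level at all 3 features, and no pig changed sides. The probe of A_72_P440991, shown next, shares no sequence with that of the other pair.
A_72_P440991 (CLDN12): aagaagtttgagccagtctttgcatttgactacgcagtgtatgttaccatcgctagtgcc

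The upper level held 8 of 12 HF low RFI pigs, 7 HF high RFI, 6 LF low RFI and 7 LF high RFI pigs. Every group thus held both levels. HF minus LF was -0.07 at A_72_P198317, with a 95% interval from -0.43 to 0.30 (limma, adjusted p = 0.811). By slide, the upper level held 1 of the 8 pigs on slide 1 and 7 of the 8 on slide 3, with 4 to 6 on the others. The part of the slide or of the animals' descent in these levels was not tested.

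**Figure D5:**
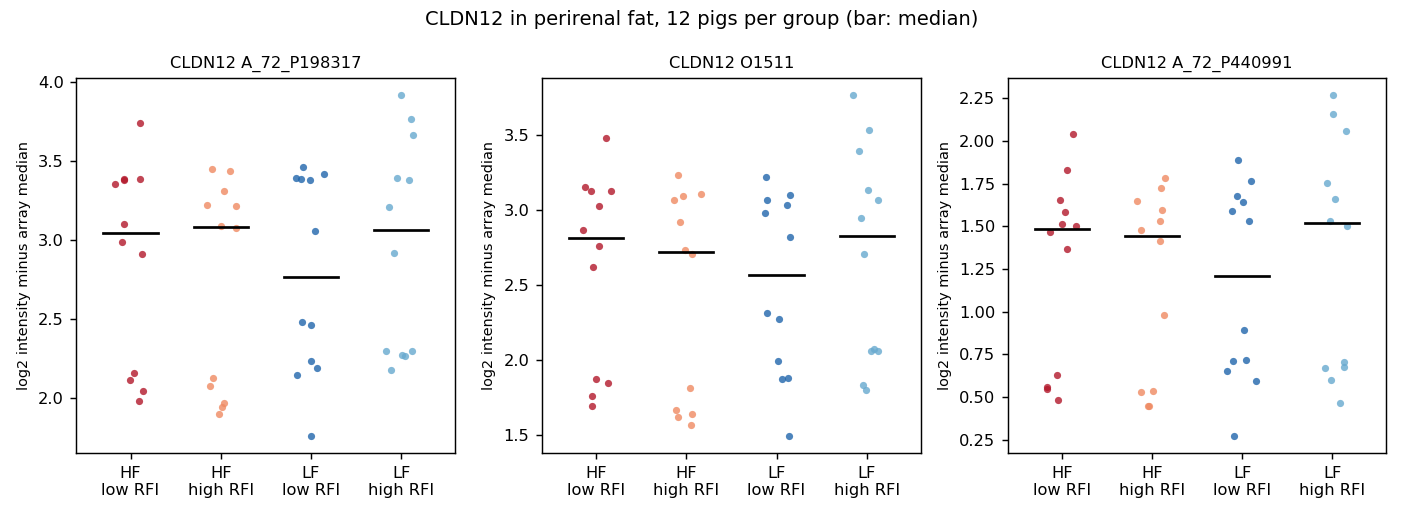
CLDN12 in the 48 pigs at its 3 features, by group. Each point is 1 pig, the y axis is log2 intensity minus the array median, and the bar is the group median. In every group the points form a lower and an upper cloud, with no pig between 2.48 and 2.91 at A_72_P198317.

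No claudin feature was called for the diet by line interaction, where limma called 0% of all features and the unmoderated analysis of variance also 0. Of all 43355 features, 997 had an unadjusted interaction p under 0.05 with limma and 980 with the analysis of variance. None of the 29 claudin features did, and the smallest p was 0.0605, for CLDN11 at A_72_P016936. With so small a share over all features, this does not set the claudins apart.

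The 12 claudin features outside the filter include those of 6 genes with no kept feature. CLDN16, CLDN17 and CLDN20 were above background on no array, CLDN22 on 1, CLDN23 on 2 and CLDN14 on 4. Single features of CLDN2, CLDN8, CLDN9, CLDN11, CLDN18 and CLDN19 also stayed out while another feature of the same gene was kept. Nearest to the limit of 24 arrays were CLDN8 A_72_P441124 with 21 outside and CLDND1 O10480 with 27 inside. Not reaching the limit says only that the signal was not well above background at this array's sensitivity.

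Of the other tight junction genes, 23 of 33 listed partners were measured, and for diet 2 were higher, 0 lower and 21 not called, beside 8.57% of all features called higher and 14.5% lower. JAM2, an adhesion molecule of junctions in vessels, rose by 0.18 ± 0.06 (SE, limma, adjusted p = 0.0214). AMOT, a junction scaffold that binds angiostatin, rose by 0.19 ± 0.05 (SE, limma, adjusted p = 0.00293). Occludin (OCLN), the strand protein that accompanies claudins, gave 0.06, and the scaffold protein TJP1 gave 0.11, without either being called. The list's median was 0.01, beside -0.02 over all features.

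By line, the partners AMOTL1 and AMOTL2, relatives of AMOT, were higher in low RFI pigs, and 21 were not called, where 1.71% of all features were called higher. AMOTL1 averaged 3.39 in low and 2.89 in high RFI pigs, a difference of 0.50 ± 0.11 (SE, limma, adjusted p = 0.00409). AMOTL2 gave 1.11 ± 0.32 (SE, limma, adjusted p = 0.0452), with 13 of 24 low RFI pigs above the high RFI mean, against 21 of 24 for AMOTL1. Thus the line called an angiomotin pair higher and CLDN7 lower.

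Of the regulators and binding proteins of claudins, 9 of 17 were measured, with 2 higher for diet and 0 lower, and none called for line. For all features, 23% were called for diet, so this share was near that of the array. ST14, the membrane protease matriptase, rose by 0.42 ± 0.12 (SE, limma, adjusted p = 0.00549), and CD81, a tetraspanin that associates with CLDN1, by 0.15 ± 0.05 (SE, limma, adjusted p = 0.0167). EPCAM, which binds CLDN7, was not kept at any of its 18 features. With spike-in centring, 12 of the 32 tight junction partners and regulators were called for diet in place of 4, all of them higher in HF pigs.

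Because CLDN4 and CLDN7 are epithelial genes, markers of tissues beside the fat were read in the same fit. Of 9 measured epithelial markers, 0 were higher and 1 lower in HF pigs, beside 8.57% and 14.5% of all features. The lower one was PROM1 at -0.33 ± 0.11 (SE, limma, adjusted p = 0.0185), called at 1 of its 2 kept features. The list's median was -0.09, beside -0.02 over all features. CDH1, the epithelial cadherin, gave -0.04 ± 0.06 (SE) at O12785, its brightest feature, while its dimmer feature A_72_P043121 fell by 0.52 ± 0.14 (SE, limma, adjusted p = 0.00540). The summed level of the list ran from 19.5 to 36.7 in HF and from 20.6 to 36.5 in LF pigs. With CLDN4, within groups, the epithelial markers correlated between -0.07 (RAB25) and 0.24 (KRT18).

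Of the kidney markers 3 of the 11 on the array were measured, and 1 was called for diet, where 23% of all features were. AQP2, the water channel of the collecting duct, was lower in HF pigs by -0.63 ± 0.13 (SE, limma, adjusted p = 0.000293). This rests on 1 of the 2 AQP2 features, since the other was not kept. CUBN was higher in low RFI pigs by 0.32 ± 0.10 (SE, limma, adjusted p = 0.0599), where 1.71% of all features were called higher. Its feature was dim, with a mean of -1.26, and well above background on 31 arrays. The summed kidney level ran from 4.50 to 11.7 in HF and from 5.48 to 16.7 in LF pigs. None of the 5 adrenal or 3 mesothelial markers was called for diet or line, where 23% and 3.37% of all features were. Their summed levels were 3.59 to 12.1 and 17.0 to 41.7 in HF pigs. In LF pigs they were 3.96 to 19.2 and 16.6 to 42.8.

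Most macrophage markers and some fat cell markers did move with diet. Of 10 macrophage markers, 7 were higher in HF pigs and 0 lower, where 8.57% of all features were higher and 14.5% lower, with C1QC at 0.81 ± 0.25, C1QA at 0.80 ± 0.25, C1QB at 0.76 ± 0.24, VSIG4 at 0.70 ± 0.23 and CD163 at 0.70 ± 0.24 (SE). The remaining called markers were CSF1R at 0.48 and AIF1 at 0.36. Of the kept features, 1 of 2 was called for C1QB, 5 of 6 for CD163 and 6 of 7 for VSIG4. The study had already reported C1QA, C1QB, C1QC and VSIG4 as raised by HF in this depot. The count of 7 of 10 was thus partly known beforehand and gives no separate support. The summed level of the 10 ran from 54.8 to 390.0 in HF pigs and from 47.6 to 318 in LF pigs. Of 8 lymphoid markers 1 was called, CD3G at 0.34 on 1 of its 2 kept features, where 23% of all features were called for diet. The summed lymphoid level ran from 6.39 to 12.5 in HF and from 5.46 to 15.3 in LF pigs.

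Of 11 fat cell markers 5 were lower in HF pigs and 0 higher, where 14.5% of all features were lower. LEP, the hormone leptin, fell by 0.94 ± 0.15 (SE), and CIDEA, CIDEC, CEBPA and PPARG gave -0.42, -0.24, -0.21 and -0.19. Lower LEP under HF had already been reported by the study, so this count too was partly known beforehand. The calls of PPARG and CEBPA were fragile, being lost under 8 and 5 of 14 alternatives and kept in 20 and 26 of the 48 fits that left out 1 pig. Of the kept features, 2 of 4 were called for PPARG and 1 of 2 for CEBPA. For PPARG the study's qPCR reported a rise under HF in this depot, the opposite direction. ADIPOQ and PLIN1 gave 0.08 ± 0.05 and -0.12 ± 0.06 (SE) and were not called. The summed level of the 11 fat cell markers ran from 5652 to 7517 in HF and from 5927 to 7962 in LF pigs. With CLDN4 the macrophage markers correlated within groups between 0.01 (CD68) and 0.28 (CD163). Over all marker lists the range was wider, from -0.39 (LIPE of the fat cell list) to 0.42 (MS4A1 of the lymphoid list). The endothelial TEK and CDH5 gave 0.40 and -0.39. By rank (Spearman), LIPE gave -0.34 and MS4A1 0.29. The MS4A1 feature was dim, with a mean of -1.24, and was well above background on 36 arrays. With spike-in centring, 23 of the 57 marker genes of all lists were called for diet, 20 higher and 3 lower, in place of 15. What part these shifts have in the claudin values was not tested.

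The genes that varied most like CLDN4 were sought among 10887 named genes, each at its brightest feature, over the 48 pigs with group means subtracted. The highest correlation with O13146 was that of RGS4, a regulator of G protein signalling (r = 0.59). NGFR, the low-affinity neurotrophin receptor, followed at 0.57. LASS6, a ceramide synthase, GAS6, a ligand of TAM receptors, and HEMK1 stood at 0.53, 0.52 and 0.52. FGFR3, UBASH3B, LTB4R2, ALCAM and SDC3 stood between 0.51 and 0.50. None of the 10 is a claudin or a tight junction partner of the list. Only 15 other claudin genes and 23 measured partners stood among the 10887, so their absence from the top 10 says nothing about them.

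The opposite pattern was strongest in LIMCH1 (r = -0.62), C9ORF30 (-0.61) and PRKRA (-0.60). All these genes share the same 48 arrays with CLDN4, so array quality and cell makeup are common to the points. The correlations are descriptions, and with this many genes compared the highest values are the extremes of a wide distribution.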

How the data were processed

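The 48 arrays were read from the deposited scanner output, in which spot intensity values are linear Cy3 brightness as the authors' Agilent software wrote them, unnormalized. Groups came from the sample titles. A deposited table of normalized values was not used here, because its row names could not be matched to its values. The submitters' notes name R 2.10.0, and the methods centre log2 values on the array median. Here log2 median intensity was centred the same way over non-control features, and spots of 1 probe were averaged. Each feature well above background on 24 or more arrays entered limma 3.58.1 (R 4.3.3), with diet, line and their interaction, all 48 arrays and no block, in place of the methods' unmoderated two-way analysis of variance, which was an alternative. The fit was checked on simulated data. Figures were drawn with matplotlib 3.10.9. Calls needed an unadjusted p under 0.01, a fold over 1.1 and a Benjamini-Hochberg p under 0.08 over all features. Gene lists used the brightest kept feature per gene. All claudins, the list members called for diet or line, defining markers and the 10 genes most like CLDN4 are named. The members and lists were chosen with earlier results of these data known. No depth exists for arrays, and their number limits the precision. Alternatives covered scaling, background, filter, flags, model, threshold and single pigs.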

Additional observations from a re-analysis of the deposited data

How the results depend on the processing

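The 5 claudin features called for diet, 2 higher and 3 lower, were 5 or 6 under every alternative except centring on spike-in controls, which left 3, all higher (both CLDN5 features and CLDN6 A_72_P441119 at 0.18). That centring also moved the median difference of all features from -0.02 to 0.12 and the share of higher calls among all diet calls from 37.2% to 93.4%, while other scalings gave 50% to 52%. It raised the tight junction and regulator genes called for diet from 4 to 12 and the marker genes from 15 to 23. The cause was not tested. Under it uncalled claudins turned positive: CLDN1 0.13, CLDN10 0.11, CLDN11 0.068, 0.085 and 0.058, CLDN12 0.080, 0.12 and 0.068, CLDN15 A_72_P356028 0.014, CLDN18 0.016, CLDN19 0.15, CLDN2 0.050 and 0.090, CLDN6 A_72_P394618 0.042, CLDN8 0.092, CLDN9 0.053, and CLDND1 0.087 and 0.012. CLDN1 also turned to 0.0040 with the 75th percentile, 0.014 with quantile normalization, 0.059 with the processed signal and 0.0034 with normexp, and CLDN19 to 0.022 with the 75th percentile and 0.028 with the processed signal. CLDN18 was called with array weights (-0.14).

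The CLDN4 difference ran from 1.34 to 1.53 at O13146 and from 0.54 to 1.26 at A_72_P441105, the highest being the background-subtracted processed signal, and the filter of all 48 arrays dropped the latter. The 2 CLDN7 line calls and the absence of an interaction call held under every alternative run.

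Leaving out 1 pig at a time gave 5 to 6 diet calls, 2 to 2 line calls and 0 to 0 interaction calls among claudins. It gave 4 to 5 and 2 to 2 tight junction and regulator genes for diet and line, 12 to 21 marker genes for diet, and CLDN4 differences of 1.23 to 1.54 and 0.59 to 0.79. The sign turned among uncalled differences of CLDN10 (-0.082 to 0.012), CLDN12 A_72_P440991 (-0.069 to 0.014), CLDN19 (-0.016 to 0.0091) and CLDN3 A_72_P366398 (-0.0020 to 0.042).

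The labels give no pairing of same-numbered pigs. Their deviations correlated above 0.1 in 38 of 72 pairs (median 0.12, against -0.01 for different numbers and 0.06 for different numbers on 1 slide), and 16 of 48 arrays were closest to their own number, a hint from the data that numbers shared something. With the replicate number as a block, the diet call count was 5, the line count 2 and the CLDN4 difference 1.39. It changed no claudin call. Signals near background, such as CLDN4 A_72_P441105, limit how small a level can be read.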
